A study of Mus musculus with 45 samples.

Results

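The clustered protocadherins are the genes of the Pcdha, Pcdhb and Pcdhg clusters, which lie next to each other on the plus strand of mouse chromosome 18. All rows of the deposited count table whose Ensembl identifier belongs to a protein-coding gene with a symbol beginning with Pcdha, Pcdhb or Pcdhg, and whose mean raw count over the 45 libraries was at least 10, were taken as members. This rule gave 56 of the 54532 rows of the table, of which 13 belonged to Pcdha, 22 to Pcdhb and 21 to Pcdhg. It used the mean count over all libraries and no comparison between conditions. The member with the lowest mean count was Pcdhb1 with 15.9 reads per library, and the only protein-coding gene with such a symbol below the limit was Pcdha4 with 0.289.

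Clustered protocadherins are cadherin-like proteins of the neuronal surface. Different combinations of them are present in different neurons, and each binds its own kind on a neighbouring membrane, which lets a neuron tell its own dendrites from those of other cells. In Pcdha and Pcdhg every transcript begins at the promoter of a variable exon, which encodes the extracellular and transmembrane part, and is spliced to constant exons shared by the whole cluster, whereas the Pcdhb genes have no constant exons. The insulator protein CTCF and the cohesin complex take part in promoter choice. The C types (Pcdhac1, Pcdhac2, Pcdhgc3, Pcdhgc4 and Pcdhgc5) lie at the downstream ends of Pcdha and Pcdhg and are regulated apart from the other members. Pcdhac2 acts in the tiling of serotonergic axons, Pcdhgc3 promotes dendrite arborization, Pcdhgc4 is needed for the survival of neurons and Pcdhgc5 binds the γ2 subunit of GABA-A receptors.

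The cells were primary hippocampal neurons of newborn C57BL/6N mice, which were treated on day 10 or 11 in vitro according to the labels. The study's methods give day 11 for the RNA sequencing. AraC, which limits the division of glia, had been added to the cultures, and markers of astrocytes were still expressed in them. There were 9 conditions with 5 libraries each, 1 from each of 5 culture preparations numbered 1, 3, 6, 7 and 8. These numbers stand in the sample titles and were read as the preparation. Control cultures received no drug. The GABA-A receptor blocker bicuculline (Bic, 50 µM), which makes networks fire bursts of action potentials (APs), was present for 0.5 h, 1 h or 2 h. In the short protocol (SP), cultures fired for 0.5 h under Bic and then received the sodium channel blocker tetrodotoxin (TTX, 1 µM), alone or together with NMDA (30 µM), for another 0.5 h. In the long protocol (LP), both periods lasted 1 h. A further LP group received the glutamate uptake blocker TBOA (50 µM) in place of TTX. Bic stayed in the medium in all of these. The questions were how APs alter expression (Bic against control), what silencing does (the passive effect, TTX against Bic), what NMDA receptor activation outside of APs adds to silencing (the active effect, TTX/NMDA against TTX), what both do together (the total effect, TTX/NMDA against Bic), and what glutamate spillover does (TBOA against Bic 2h). Several of these comparisons share libraries.

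The libraries held between 11316580 and 81129276 counted reads, with a median of 26239614. Levels are given in CPM, the counts of a gene relative to its library's total with TMM scaling. Where genes are compared with each other, they are given in CPM per kilobase of countable bases, the exon bases that no other gene model overlaps. Of the 75-base windows in these bases, up to 19.4% in Pcdha, 4.05% in Pcdhb and 13.19% in Pcdhg members also lay in another gene. Multi-mapping reads were not counted, so levels per kilobase may be too low for some members. Reads from the constant exons overlap many gene models at once and were not counted, so the values of Pcdha and Pcdhg members come from the variable exons. On GRCm38, Pcdha members extended from position 36930184 to 37187661, Pcdhb members from 37264938 to 37524479 and Pcdhg members from 37661793 to 37841873. Log2 fold changes are given with their standard error (SE), and p-values come from the quasi-likelihood test of edgeR, adjusted by the Benjamini-Hochberg method over all genes tested. A member is said to rise or fall only where its adjusted p was under 0.05.

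The drugs acted on known activity genes. The immediate early transcripts Npas4, Fos and Arc, the growth factor Bdnf, the activin subunit Inhba and the synaptic scaffold Homer1 all rose after 2 h of Bic. Inhba went from 7.73 ± 0.448 CPM in control cultures to 47.4 ± 4.88 CPM (SD, n = 5). Its level was 44.1 ± 4.76 CPM in LP TTX and 9.82 ± 2.18 CPM in LP TTX/NMDA.

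The control library of preparation 3 stood apart for these genes. It was the lowest of the 5 control libraries for 21 of 21 Pcdhg members, 11 of 13 Pcdha members and 8 of 22 Pcdhb members. Its median level relative to the other 4 control libraries was 67.3% in Pcdhg, 75.1% in Pcdha and 93% in Pcdhb. The summed level of 6 markers of excitatory neurons was also lowest there, with 1890 CPM against 2330 to 2880 CPM in the other control libraries. This marker sum was lowest in preparation 3 in 6 of the 9 conditions, so that is not particular to control. Comparisons against control are therefore given with and without preparation 3. Its Pcdhg sum was 303.9 CPM, where the other 4 held 427.7 to 461.2 CPM. In other conditions preparation 6 was often lowest. This held in SP TTX for 16 of 21 Pcdhg, 13 of 22 Pcdhb and 8 of 13 Pcdha members, and in Bic 0.5h for 18 of 21 Pcdhg members.

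All 3 clusters were expressed in resting cultures. Per length, Pcdhac2 was the most abundant member with 37.01 ± 6.7 CPM per kb (SD, n = 5). The next in order were Pcdhgc3 with 19.3 ± 2.5 CPM per kb, Pcdhga11 with 15.4 ± 2.4, Pcdhgc4 with 13.1 ± 1.4 and Pcdhga3 with 12.2 ± 2.5. Pcdhgc4 and Pcdhga3 differed by less than their SDs. Of the other C types, Pcdhgc5 had 8.22 ± 2.4 CPM per kb and Pcdhac1 only 1.64 ± 0.38 CPM per kb. The lowest levels were those of Pcdha8 with 0.276 ± 0.031 and of Pcdhb1 with 0.209 ± 0.059 CPM per kb. The median member had 4.81 CPM per kb in Pcdha, 2.09 in Pcdhb and 5.14 in Pcdhg. The ratio of the highest to the lowest member was 134 in Pcdha, 36.4 in Pcdhb and 12.3 in Pcdhg.

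**Figure D1:**
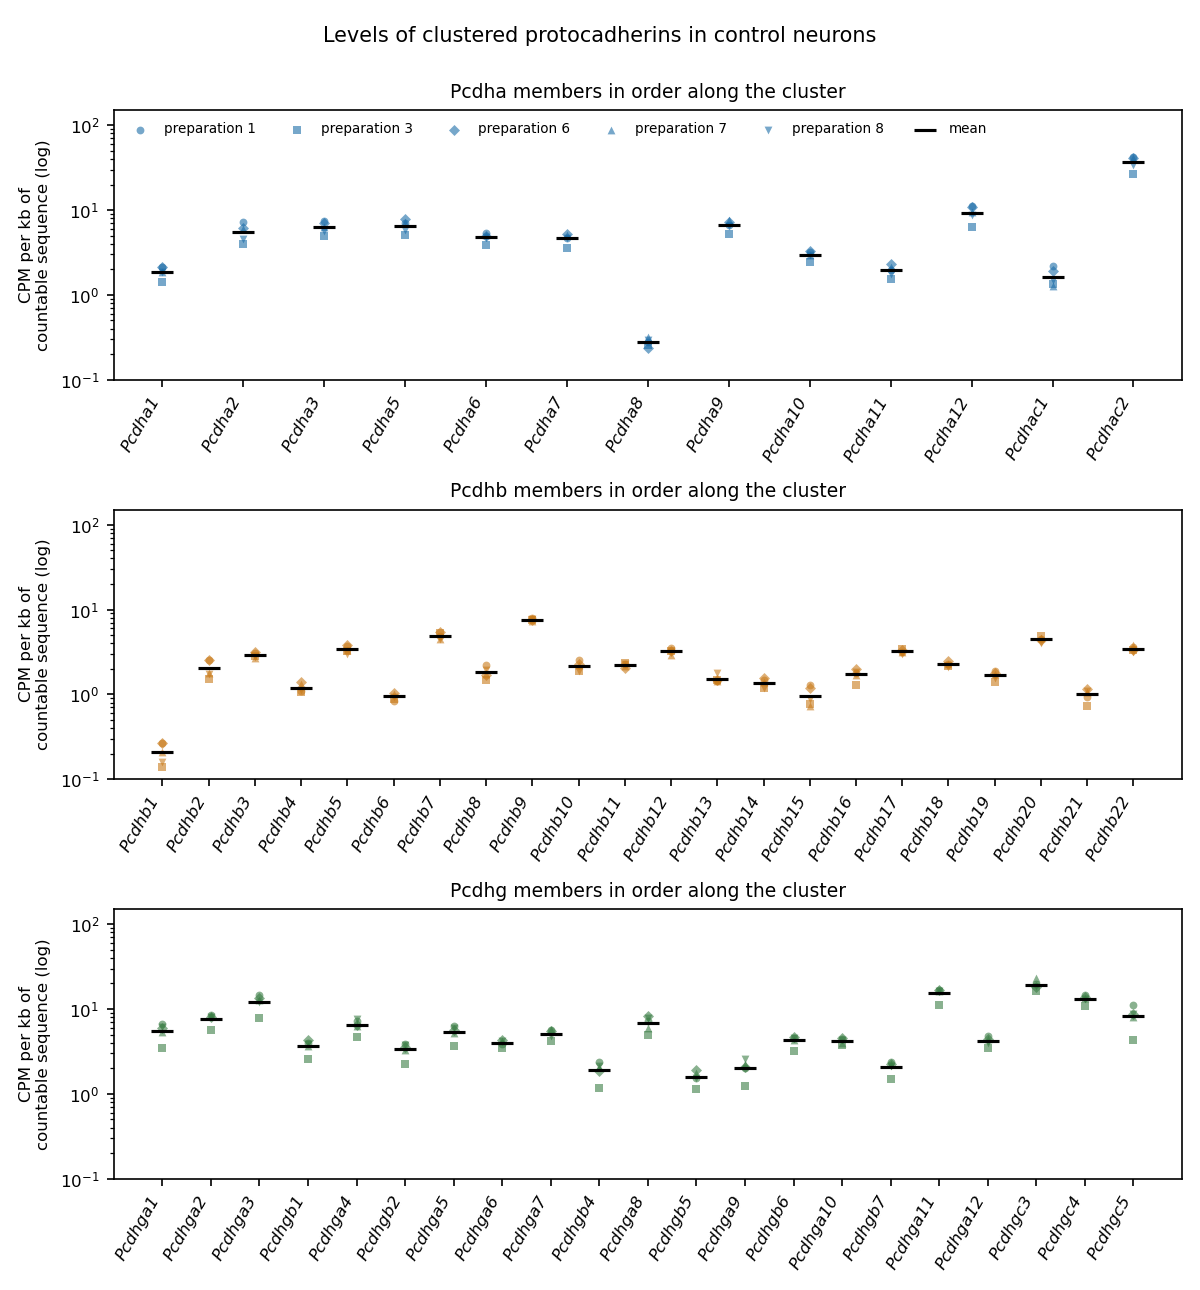
Level of each of the 56 members in control cultures, in CPM per kilobase of countable sequence on a log axis, with points for the 5 preparations and a bar for their mean. Pcdhac2 lies highest at 37.01 CPM per kb, and Pcdha8 and Pcdhb1 lie lowest.

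The spread between control libraries differed among members. Pcdhb9, the most abundant Pcdhb member per length, varied least, with values of 24.1, 23.2, 22.8, 22.4 and 23.6 CPM in preparations 1, 3, 6, 7 and 8. This was a coefficient of variation of 2.81%. Pcdhgc5 varied most, with 51.2, 20.03, 40.3, 37.6 and 40.2 CPM in the same order and a coefficient of variation of 29.7%. The median coefficient of variation was 15.6% in Pcdha, 9.84% in Pcdhb and 17.5% in Pcdhg. Without preparation 3 it was 10.6%, 9.3% and 7.84%.

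AP firing moved few members. None of the 56 passed the test after 0.5 h of Bic, when 0.289% of all genes tested rose and 0% fell. There 0 members had an unadjusted p under 0.05, against 548 of the 15808 genes with a mean count of at least 10. After 1 h again none passed, when 0.965% of all genes rose and 0.195% fell. There 5 of the 56 members had an unadjusted p under 0.05, a share similar to 1548 of the 15808 genes with a mean count of at least 10. After 2 h Pcdhgc3 and Pcdhgc4 rose and none fell, while 4.24% of all genes rose and 4.78% fell. Of all genes with a mean count of at least 10, which is the rule for members, 7.58% rose at 2 h.

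Pcdhgc3 was present at 66.0, 55.7, 62.0, 78.3 and 63.6 CPM in the control libraries of preparations 1, 3, 6, 7 and 8, and at 85.8, 106.3, 80.3, 105.2 and 80.7 CPM after 2 h of Bic. The groups did not overlap, and the log2 fold change was 0.48 (SE 0.09, adjusted p = 0.000291). Pcdhgc4 had 50.3, 37.3, 47.9, 46.3 and 45.6 CPM in control and 55.3, 63.7, 51.0, 55.6 and 51.4 CPM after 2 h of Bic. Each of the 5 Bic libraries lay above all 5 control libraries, with a log2 fold change of 0.27 (SE 0.08, adjusted p = 0.0336). The call on Pcdhgc4 was lost without preparation 3, where its log2 fold change was 0.16 (adjusted p = 0.297), without preparation 7 (0.28, adjusted p = 0.0885) and with library totals in place of TMM (0.19, adjusted p = 0.173). That on Pcdhgc3 was kept in each of these.

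The other members gave no call, and the medians of all 3 clusters were lower without preparation 3. At 2 h the median log2 fold change was 0.20 in Pcdha, 0.01 in Pcdhb and 0.22 in Pcdhg, against −0.006 over all genes tested. All 21 Pcdhg members and 12 of 13 Pcdha members were above 0. An unadjusted p under 0.05 was found for 17 of the 56. It was found for 4770 of the 15808 genes with a mean count of at least 10, which is a similar share. Without preparation 3 the medians were 0.085, −0.022 and 0.11. At 1 h the medians of 0.16, 0.038 and 0.11 became 0.056, −0.005 and 0.019, and at 0.5 h those of 0.11, −0.001 and 0.083 became −0.018, −0.021 and −0.025. With the preparation as a block, 9 members rose at 2 h (Pcdha5, Pcdha6, Pcdha10, Pcdhb10, Pcdhgb1, Pcdhgb5, Pcdhga10, Pcdhgc3 and Pcdhgc4), where 14.4% of the genes in that fit rose.

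Silencing with TTX left no member past the test in either protocol. In the SP, where 0.0157% of all genes rose and 0.252% fell, the median log2 fold changes were −0.062 in Pcdha, 0.002 in Pcdhb and −0.035 in Pcdhg. No member had an unadjusted p under 0.05, against 648 of the 15808 genes with a mean count of at least 10. In the LP, where 3.03% of all genes rose and 1.62% fell, the medians were −0.098, 0.10 and −0.041. There 3 members had an unadjusted p under 0.05, a smaller share than 4173 of the 15808 genes with a mean count of at least 10. DESeq2 called 1 member, Pcdhb14, higher. The summed Pcdhb level was higher in LP TTX than in Bic 2h in all 5 preparations, by a log2 difference of 0.115 ± 0.05 (SD, n = 5). With the preparation as a block, Pcdhb14, Pcdhb16, Pcdhb18, Pcdhb20 and Pcdhb22 rose and Pcdha2, Pcdha6, Pcdha9, Pcdha12 and Pcdhgc3 fell in the LP, where that fit called 15.7% of its genes higher and 16.2% lower.

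Activation of NMDA receptors in silenced cultures lowered most of the members. In the SP, 9 of 13 Pcdha, 2 of 22 Pcdhb and 18 of 21 Pcdhg members fell and none rose, where 3.32% of all genes tested and 6.73% of those with a mean count of at least 10 fell and 0.956% of all genes rose. In the LP, all 13 Pcdha, 12 of 22 Pcdhb and 20 of 21 Pcdhg members fell and none rose. There 11.8% of all genes tested and 23.7% of those with a mean count of at least 10 fell, and 11.6% of all genes rose. The median log2 fold change in the LP was −0.87 in Pcdha, −0.28 in Pcdhb and −0.86 in Pcdhg, and 0.112 over all genes tested. In the SP it was −0.40, −0.054 and −0.47, and 0.038 over all genes.

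In the LP the TTX/NMDA libraries did not overlap with the TTX libraries for 12 of 13 Pcdha members, 10 of 22 Pcdhb members and 20 of 21 Pcdhg members, all of them lower, as 18.5% of genes with a mean count of at least 10 were. The same was true in the SP for 8, 3 and 15 members, where it was so for 6.64% of those genes. Pcdhac1, Pcdhb18 and Pcdhb21 fell in the LP although their groups overlapped. Within preparations, 13 Pcdha, 17 Pcdhb and 20 Pcdhg members were lower in LP TTX/NMDA than in LP TTX in all 5 of them, as 30.8% of genes with a mean count of at least 10 were.

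**Figure D2:**
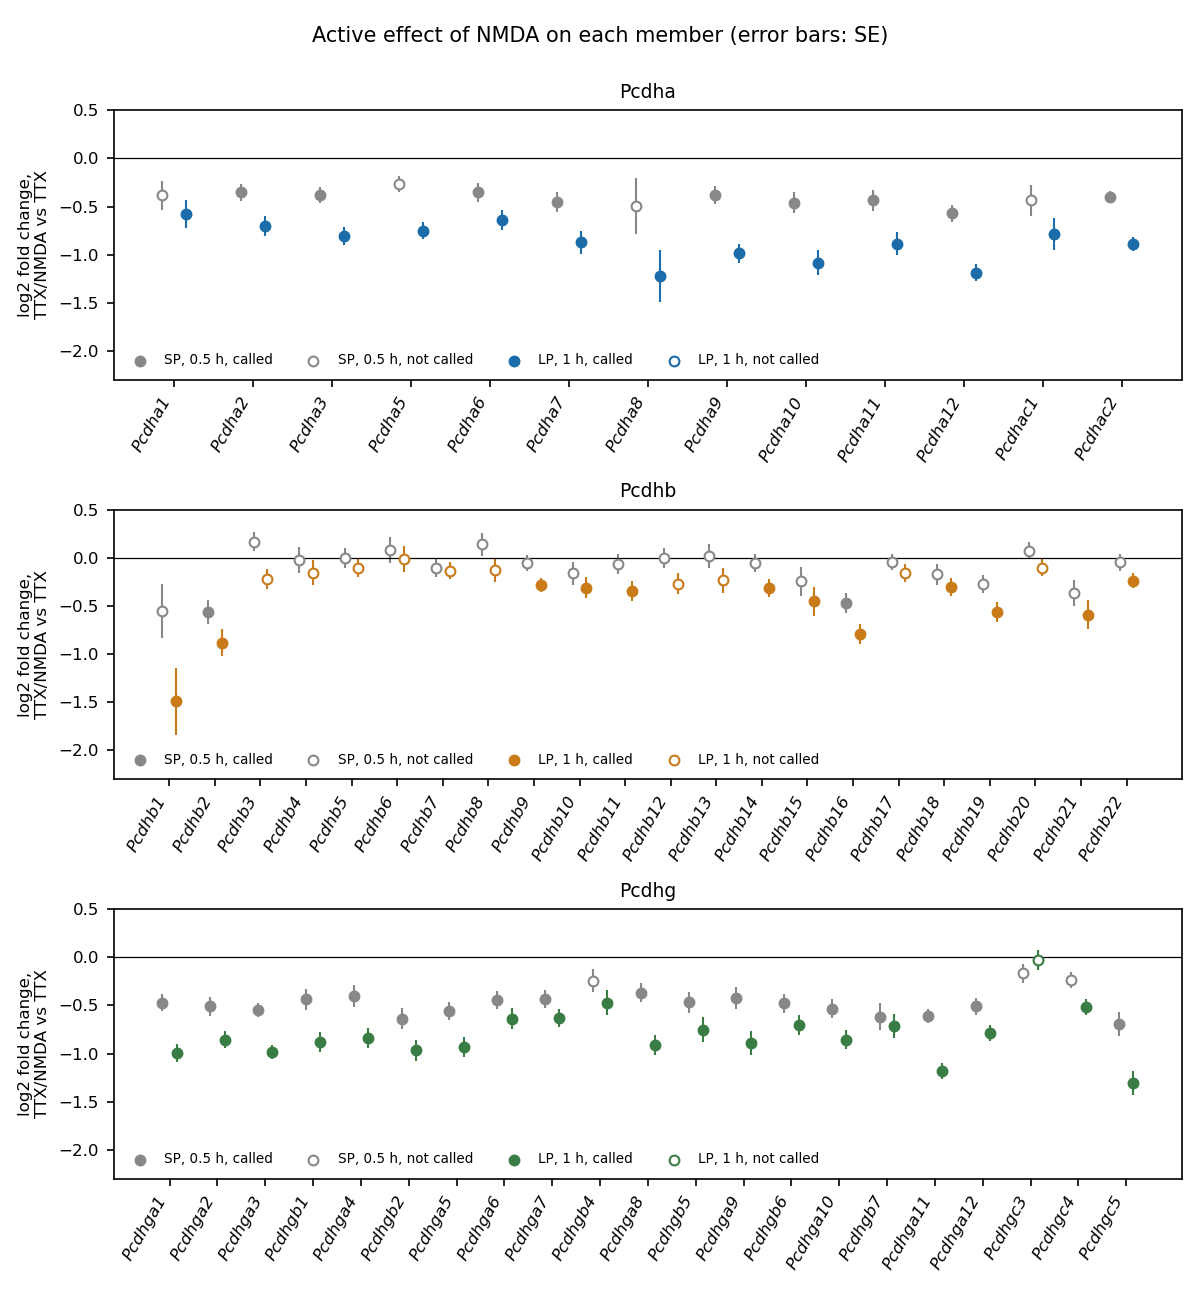
Log2 fold change of each of the 56 members with NMDA receptor activation (TTX/NMDA against TTX), with its SE, in the short and the long protocol. In the long protocol all 56 values lie below 0 with TMM scaling, from −1.49 for Pcdhb1 to −0.01 for Pcdhb6, while with library totals 7 Pcdhb members and 1 Pcdhg member lay above 0.

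The size of these changes depends on how the libraries were scaled. With library totals in place of TMM, a choice made after the data were seen, the median of all genes in the LP moved from 0.112 to 0.255 and the split of all calls from 3807 higher and 3861 lower to 7049 higher and 2133 lower. Relative to this, Pcdha and Pcdhg kept their direction, with medians of −0.69 and −0.68 and 13 of 13 and 19 of 21 members lower. In Pcdhb the median was then −0.099, 5 of 22 members fell and 7 lay above 0, so that the direction of single Pcdhb members rests on the scaling. In the SP, library totals gave falls of 5 Pcdha, 2 Pcdhb and 15 Pcdhg members, a Pcdhb median of 0.017, and 712 higher and 609 lower calls over all genes in place of 308 and 1071. For the other comparisons with many calls, they turned 1311 higher and 1478 lower into 1005 and 2525 at Bic 2h, and 3768 higher and 3593 lower into 7573 and 1897 in the LP total effect. Leaving out preparation 3 also took the Pcdhb count from 12 to 7, while the counts for Pcdha and Pcdhg remained 13 and 20.

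The sums over the members showed the clusters side by side. The summed Pcdha level was 260.7 ± 12.1 CPM in LP TTX and 142.8 ± 8.55 CPM in LP TTX/NMDA (SD, n = 5), the latter being 58.7% of the control mean. The Pcdhg sum was 474.5 ± 20.7 CPM in LP TTX and 297.7 ± 21.6 CPM in LP TTX/NMDA, or 72.2% of control. The Pcdhb sum was 238.0 ± 8.30 CPM and 196.9 ± 10.8 CPM, or 89.9% of control. Within preparations the log2 difference was −0.869 ± 0.148 for Pcdha, −0.675 ± 0.065 for Pcdhg and −0.275 ± 0.073 for Pcdhb. The Pcdhb sum differed less than the other sums in each of the 5 preparations. In the SP the differences were −0.398 ± 0.056, −0.419 ± 0.072 and −0.076 ± 0.132.

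**Figure D3:**
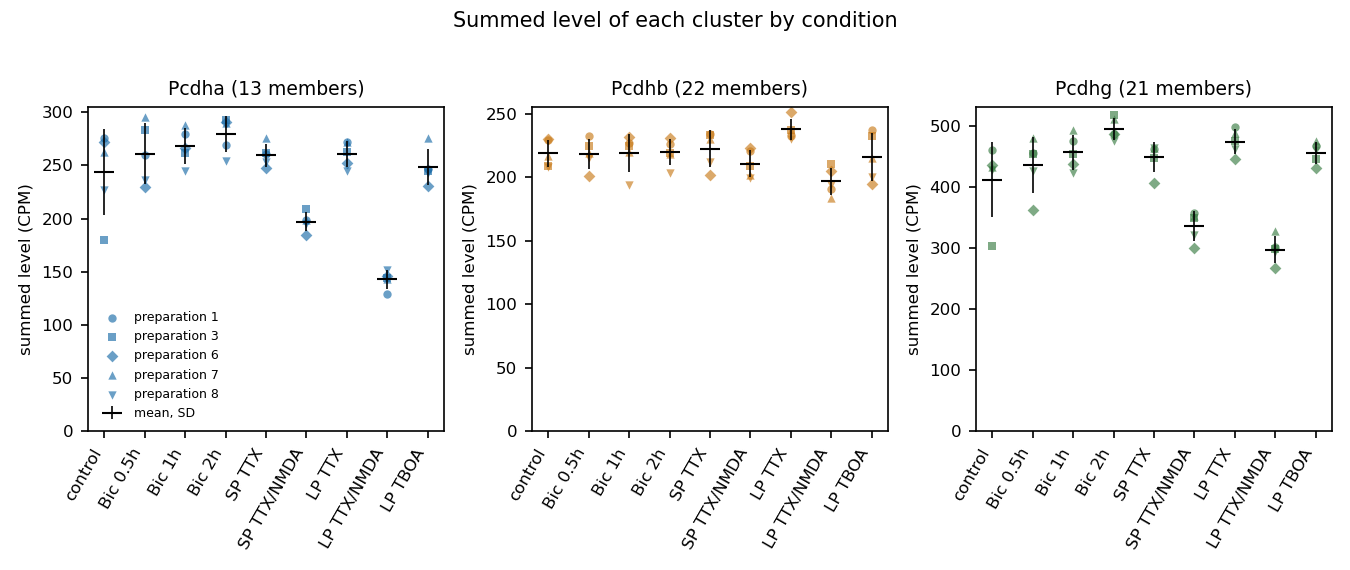
Summed level of the members of each cluster, in CPM, in the 9 conditions, with points for the 5 preparations and a line for their mean. The TTX/NMDA groups lie lowest, with means of 142.8 CPM for Pcdha, 196.9 CPM for Pcdhb and 297.7 CPM for Pcdhg in the long protocol, and the control library of preparation 3 lies below the others for Pcdha and Pcdhg.

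Among the Pcdha members other than the C types, Pcdha12, Pcdha8 and Pcdha10 had the largest falls. Pcdha12 was present at 24.8, 23.8, 22.2, 24.4 and 20.8 CPM in LP TTX and at 9.18, 9.93, 10.4, 10.6 and 11.2 CPM in LP TTX/NMDA (preparations 1, 3, 6, 7 and 8). The groups lay far apart, with a log2 fold change of −1.19 (SE 0.09, adjusted p = 2.42e-11) in the LP and of −0.57 (SE 0.09, adjusted p = 3.23e-05) in the SP. Pcdha10 had between 8.57 and 9.15 CPM in LP TTX and between 3.28 and 5.14 CPM in LP TTX/NMDA, a log2 fold change of −1.08 (SE 0.13, adjusted p = 1.37e-07). Pcdha8, the member with the lowest level of its cluster, had 0.558 to 1.00 CPM and 0.217 to 0.471 CPM, and its SE was larger (−1.22, SE 0.27, adjusted p = 0.000955). Pcdha7, with −0.45 (SE 0.10), was also among the members that fell in the SP, and its log2 fold change in the LP was −0.87 (SE 0.12). Pcdha5, which is among the more abundant members, fell by 0.75 on the log2 scale in the LP (SE 0.09, adjusted p = 1.68e-07).

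In Pcdhg nearly all A and B types fell. All 12 Pcdhga members fell in both protocols, with median log2 fold changes of −0.87 in the LP and −0.49 in the SP. Of the 6 Pcdhgb members, 6 fell in the LP with a median of −0.73 and 5 in the SP with a median of −0.47. Pcdhga11, the most abundant A type, was present at 46.5, 47.4, 42.2, 50.0 and 47.3 CPM in LP TTX and at 18.5, 21.4, 18.9, 19.97 and 24.6 CPM in LP TTX/NMDA. No LP TTX/NMDA library came near the lowest LP TTX library, and the log2 fold change was −1.18 (SE 0.08, adjusted p = 3.82e-12). Pcdhga1 fell from 18.5 to 21.1 CPM to 9.19 to 11.5 CPM (−0.99, SE 0.09, adjusted p = 1.11e-09). In the SP, the largest falls in this cluster besides Pcdhgc5 were those of Pcdhgb2 (−0.64, SE 0.11, adjusted p = 0.000221) and Pcdhgb7 (−0.62, SE 0.14, adjusted p = 0.00482). Pcdhgb7 had the lowest level of its cluster by mean CPM.

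Of the 5 C types, 4 fell in the LP and Pcdhgc3 did not pass the test. Pcdhgc5 had the largest fall of its cluster, from 53.0, 31.4, 45.2, 44.2 and 40.7 CPM in LP TTX to 20.3, 12.5, 14.96, 17.9 and 21.2 CPM in LP TTX/NMDA in preparations 1, 3, 6, 7 and 8. Its groups did not overlap, and the log2 fold change was −1.31 (SE 0.12, adjusted p = 2.05e-09). In the SP it fell by 0.69 on the log2 scale (SE 0.12, adjusted p = 0.000256). Pcdhac2 went from 130.0, 116.7, 117.3, 129.4 and 111.2 CPM to 59.8, 63.1, 66.7, 65.3 and 73.3 CPM, with a log2 fold change of −0.89 (SE 0.07, adjusted p = 7.14e-11). Pcdhac1, at 2.62 to 4.93 CPM in LP TTX and 1.92 to 2.74 CPM in LP TTX/NMDA, had a similar log2 fold change of −0.79 with a larger SE of 0.17 (adjusted p = 0.000562).

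Pcdhgc4 fell less, from 58.5, 54.2, 43.1, 49.7 and 51.9 CPM to 39.7, 37.7, 32.6, 35.7 and 34.9 CPM. Its groups did not overlap either, and the log2 fold change was −0.52 (SE 0.08, adjusted p = 8.34e-06). Pcdhgc3 was the only Pcdhg member that did not pass the test in the LP. It had 87.8, 91.8, 74.1, 95.1 and 70.2 CPM in LP TTX and 84.8, 85.0, 69.5, 109.4 and 65.8 CPM in LP TTX/NMDA. The ranges overlapped almost fully, with 4 preparations slightly lower and preparation 7 higher, and the log2 fold change was −0.02 (SE 0.10, adjusted p = 0.91). Its sign turned with the scaling and the filter, from −0.02 to 0.15 with library totals. Pcdhgc3 was highest in preparation 7 in 8 of the 9 conditions.

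**Figure D4:**
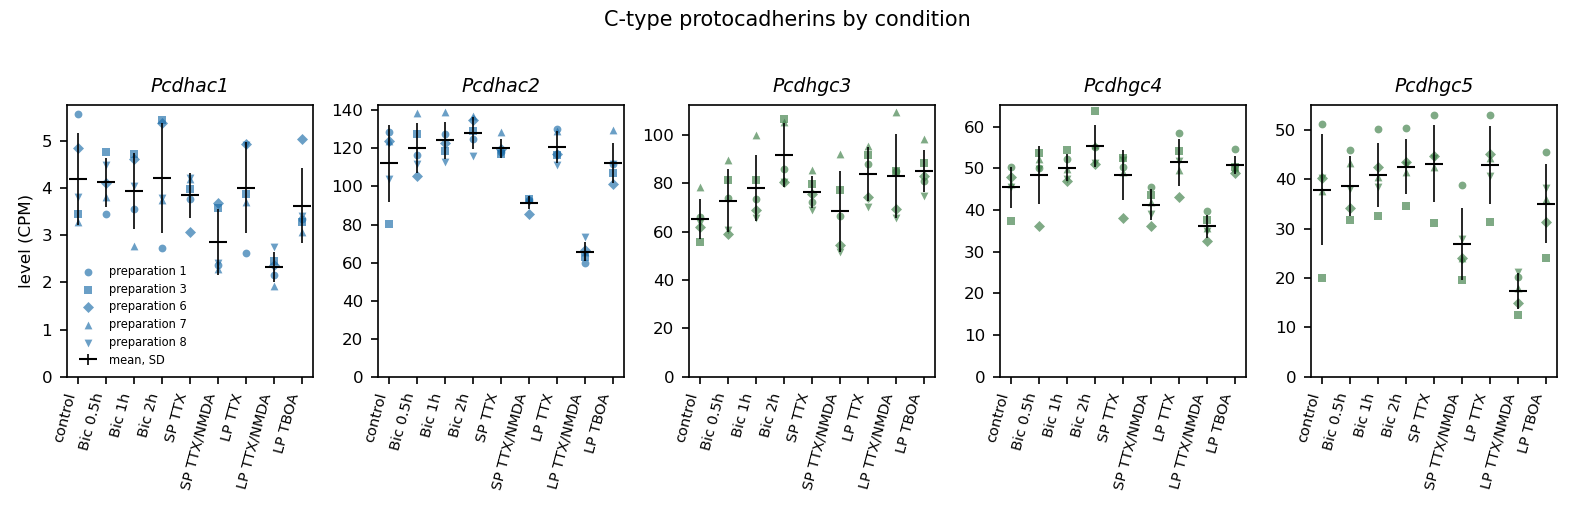
Level of the 5 C types in CPM in the 9 conditions, with points for the 5 preparations and a line for their mean. Pcdhac2 and Pcdhgc5 lie lowest in LP TTX/NMDA, whereas Pcdhgc3 lies between 65.8 and 109.4 CPM there and between 70.2 and 95.1 CPM in LP TTX.

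The shares of single members within their cluster were also compared. Per length, Pcdhgc3 made up 14.3 ± 1.86% of the Pcdhg level in control, 15.8 ± 1.66% in LP TTX and 25.1 ± 3.83% in LP TTX/NMDA (SD, n = 5). Its lowest share in LP TTX/NMDA was 20.1% and its highest in LP TTX was 17.5%. The share of Pcdhgc5 was 5.94 ± 1.05% in LP TTX and 3.88 ± 0.79% in LP TTX/NMDA. The effective number of Pcdhg members, the exponential of the Shannon entropy of these shares, was 16.4 ± 0.38 in LP TTX and 14.5 ± 0.9 in LP TTX/NMDA. In Pcdha the share of Pcdhac2 was 41.6 ± 1.36% and 41.2 ± 1.62%, and the effective number was 7.54 ± 0.28 and 7.63 ± 0.23. These shares are descriptions and were not tested.

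Pcdhb held members with clear falls and members with none. Pcdhb2 had 7.08, 5.68, 8.47, 6.89 and 5.79 CPM in LP TTX and 3.54, 3.85, 4.73, 3.53 and 3.02 CPM in LP TTX/NMDA, and Pcdhb16 had 11.9, 10.9, 12.9, 12.5 and 11.6 CPM and 6.05, 7.76, 7.17, 6.57 and 7.25 CPM. The groups did not overlap for either gene. The log2 fold change of Pcdhb2 was −0.88 (SE 0.14, adjusted p = 1.67e-05) in the LP and −0.56 (SE 0.13, adjusted p = 0.00548) in the SP. That of Pcdhb16 was −0.79 (SE 0.10, adjusted p = 8.83e-07) and −0.47 (SE 0.10, adjusted p = 0.00294), and these were the 2 members of the cluster that fell in the SP. Pcdhb1, at the upstream end of the cluster, had 0.359 to 0.731 CPM in LP TTX and 0.0447 to 0.277 CPM in LP TTX/NMDA. Its log2 fold change of −1.49 rested on few reads and had an SE of 0.35 (adjusted p = 0.00156).

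Of the 3 most abundant Pcdhb members by CPM, Pcdhb9 and Pcdhb22 fell. Pcdhb9 was present at 23.4 to 24.5 CPM in LP TTX and at 18.9 to 20.7 CPM in LP TTX/NMDA, which did not overlap, with a log2 fold change of −0.28 (SE 0.08, adjusted p = 0.00531). Pcdhb22 fell by 0.24 on the log2 scale (SE 0.08, adjusted p = 0.0252). Pcdhb7 had 16.3 to 18.97 CPM and 14.8 to 18.3 CPM, which overlapped, and did not pass the test. The smallest difference of all members was that of Pcdhb6, chosen here after its values were seen, with 3.60 to 4.79 CPM and 3.57 to 5.01 CPM. Across the 22 Pcdhb members, the log2 fold change in the LP and the log2 level in control had a Pearson's r of 0.64 and a Spearman's rho of 0.40. These members share their libraries, and those with few reads are measured less well.

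The active effects in the SP and in the LP share no library but come from the same 5 preparations. They were alike across members, with a Pearson's r of 0.90 and a Spearman's rho of 0.86 (n = 56 members). These values include the difference between the clusters. Within clusters, r and rho were 0.75 and 0.80 in Pcdha, 0.89 and 0.87 in Pcdhb, and 0.81 and 0.63 in Pcdhg. When the difference between protocols was itself tested, the active effect was more negative in the LP for Pcdha3, Pcdha5, Pcdha9, Pcdha10, Pcdha12 and Pcdhac2 and for Pcdhga1, Pcdhga3, Pcdhga8 and Pcdhga11, and for no Pcdhb member. This difference was significant and negative for 1.85% of all genes tested and for 4.05% of those with a mean count of at least 10, and positive for 0.722% of all genes and for no member. The difference (LP minus SP, log2) was −0.61 for Pcdha10 (SE 0.16, adjusted p = 0.0276), −0.60 for Pcdha12 (SE 0.12, adjusted p = 0.00195), −0.59 for Pcdha9 (SE 0.13, adjusted p = 0.0079) and −0.56 for Pcdhga11 (SE 0.11, adjusted p = 0.001). For Pcdhgc3 it was 0.16 (SE 0.17, adjusted p = 0.805). Without preparation 1 there were 3 calls (Pcdhac2, Pcdha12 and Pcdhga11), and without preparation 3 or preparation 6 there were 6. With the preparation as a block there were 29 (10 in Pcdha, 5 in Pcdhb and 14 in Pcdhg), all more negative in the LP, where 15.1% of the genes in that fit were. The protocols differ in the time with Bic, with TTX and with NMDA at once, so these cannot be told apart.

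The total effect in the LP, TTX/NMDA against Bic 2h, shares its TTX/NMDA libraries with the active effect. All 13 Pcdha, 8 of 22 Pcdhb and 20 of 21 Pcdhg members fell and none rose, where 11.1% of all genes tested and 22.1% of those with a mean count of at least 10 fell and 11.7% of all genes rose. The medians were −0.88, −0.13 and −0.90. The largest falls were those of Pcdha12 (−1.34, SE 0.09), Pcdha9 (−1.14, SE 0.10) and Pcdha10 (−1.11, SE 0.13) in Pcdha, of Pcdhgc5 (−1.30, SE 0.11), Pcdhga11 (−1.22, SE 0.08) and Pcdhga3 (−1.05, SE 0.08) in Pcdhg, and of Pcdhb1 (−1.59, SE 0.35), Pcdhb2 (−0.79, SE 0.14) and Pcdhb16 (−0.60, SE 0.11) in Pcdhb. Pcdhgc3 had a log2 fold change of −0.16 (adjusted p = 0.308). With library totals, 12 Pcdha and 19 Pcdhg members still fell, but in Pcdhb 3 fell, 1 rose and the median was 0.068.

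Glutamate spillover under TBOA gave no call among the members, where 0.0536% of all genes rose and 0.549% fell. Median log2 fold changes were −0.15 in Pcdha, 0.026 in Pcdhb and −0.095 in Pcdhg. There 6 members had an unadjusted p under 0.05, a share similar to 1840 of the 15808 genes with a mean count of at least 10. All 21 Pcdhg and 12 of 13 Pcdha members lay below 0. The Pcdha sum was lower than in Bic 2h in all 5 preparations, by a log2 difference of −0.17 ± 0.119, and the Pcdhg sum likewise, by −0.122 ± 0.073 (SD, n = 5). Pcdhgc5 had 45.6, 24.1, 31.3, 36.1 and 38.2 CPM against 50.3, 34.6, 43.6, 41.5 and 42.8 CPM in Bic 2h, lower in each preparation although the groups overlapped. Its log2 fold change was −0.26 (SE 0.10, adjusted p = 0.487), and with the preparation as a block it fell (adjusted p = 0.0264), where 2.23% of the genes in that fit fell. It was also the 1 member called without preparation 8.

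The members differ in the length of genome that their gene models span, from 44.2 to 257 kb in Pcdha, 22.4 to 180 kb in Pcdhg and 2.59 to 8.7 kb in Pcdhb. Longer genes had more negative active effects in the LP across the other protein-coding genes. Their median log2 fold change was 0.168 for 3125 genes under 10 kb, −0.025 for 3784 genes of 20 to 50 kb, −0.151 for 1716 genes of 100 to 300 kb and −0.301 for 530 genes over 300 kb, of which 55.7% fell. The medians of the members were −0.87 in Pcdha, −0.86 in Pcdhg and −0.28 in Pcdhb, and the part of the span in these was not tested. The gene models of Pcdha all end at nearly the same position, as do those of Pcdhg. Members further along these clusters therefore span less genome. Between the order of the members along their cluster and their log2 fold change, Pearson's r was −0.58 and Spearman's rho −0.63 in Pcdha (n = 13 members of the same libraries). They were 0.21 and 0.25 in Pcdhg (n = 21) and 0.17 and −0.12 in Pcdhb (n = 22), so no direction was common to the clusters. In Pcdha, members with shorter spans thus tended to have the more negative values, opposite to the other protein-coding genes.

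**Figure D5:**
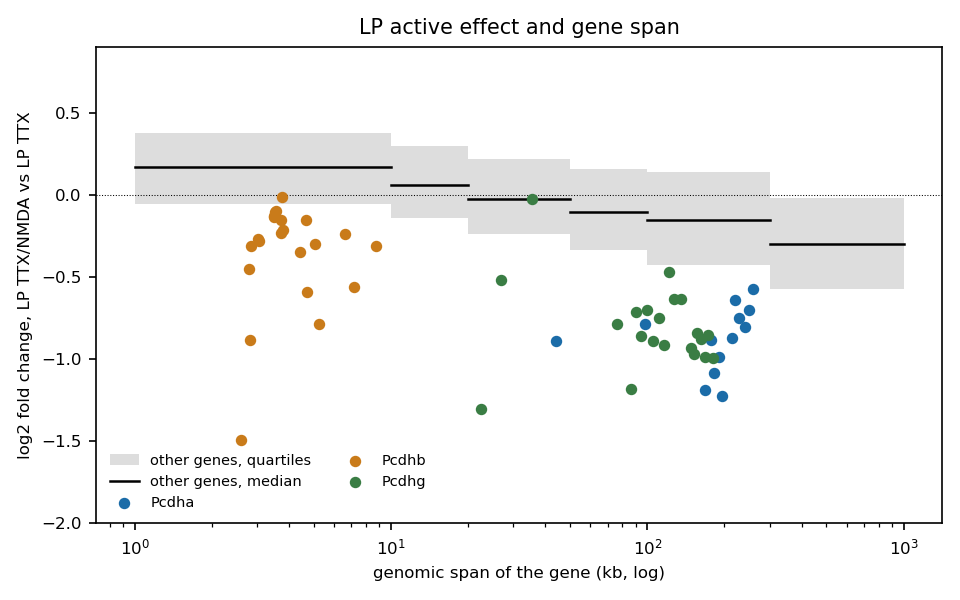
Log2 fold change with NMDA receptor activation in the long protocol against the span of the gene model in kilobases on a log axis, with points for the 56 members and lines for the median and quartiles of other protein-coding genes by span class. The medians of other genes run from 0.168 under 10 kb to −0.301 over 300 kb, and most members lie below them.

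Genes known to regulate the clusters were examined as a list of 24, chosen with earlier results of these data known. In the active effect of the LP, 1 rose and 13 fell, and the median log2 fold change of the list was −0.21. Of the 15808 genes with a mean count of at least 10, 23.7% fell and 3120 rose. As the list was not chosen blind, these counts are a description only. Ctcf itself, at 55.2 CPM, had −0.005 (SE 0.07, adjusted p = 0.961). The promoter factor Zfp143 rose by 0.54 (SE 0.13, adjusted p = 0.00279). Among those that fell were the DNA demethylase Tet3 (−0.69, SE 0.08, adjusted p = 1.63e-07), the cohesin release factor Wapl (−0.55, SE 0.07, adjusted p = 8.46e-07) and the repressor Rest (−0.40, SE 0.14, adjusted p = 0.0345). In the SP, 0 of the 24 rose and 3 fell, where 6.73% of genes with a mean count of at least 10 fell.

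Of 26 genes for partners and signalling of the clustered protocadherins, 0 rose and 15 fell in the LP, with a median of −0.25 and the same 23.7% of genes as background. This list, too, was chosen with earlier results of these data known. The falls were led by Nlgn1, a neuroligin bound by γ-protocadherins (−0.99, SE 0.08, adjusted p = 7.87e-11), Ptk2b, a kinase bound by the constant domains (−0.98, SE 0.07, adjusted p = 1.15e-11), Nckap1 of the WAVE complex (−0.76, SE 0.08, adjusted p = 9.93e-09) and Prkca, a protein kinase C (−0.68, SE 0.07, adjusted p = 1.05e-08). In the SP, 0 rose and 7 fell, against the 6.73% of genes given above.

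Marker genes of cell types moved with the active effect, and in these bulk cultures fewer cells of a type and less RNA per cell cannot be told apart. The counts that follow stand against 11.6% of all genes that rose and 11.8% that fell in the LP, and 0.956% and 3.32% in the SP. Of the 15808 genes with a mean count of at least 10, 3120 rose and 3750 fell in the LP. In the SP, 262 of these rose and 1064 fell. All 6 markers of excitatory neurons fell in the LP, with a median log2 fold change of −0.88, and their summed level was 2300 to 2800 CPM in LP TTX and 1100 to 1570 CPM in LP TTX/NMDA. Of 7 general neuronal markers 4 fell and none rose, with sums of 8620 to 9190 CPM and 6970 to 7490 CPM. Of 5 markers of inhibitory neurons 2 rose and none fell. Of 8 astrocyte markers 7 rose and Slc1a2 fell, with sums of 1050 to 1610 CPM and 1220 to 2210 CPM. Of the markers of the oligodendrocyte lineage 4 of 8 rose, of microglia 3 of 7, of endothelial and mural cells 3 of 6 and of choroid plexus and meninges 3 of 6, and none fell. In the SP, 5 of the 6 markers of excitatory neurons fell, and of the 8 astrocyte markers none rose and 1 fell. The astrocyte sum was highest in preparation 7 in 7 of the 9 conditions, and Pcdhgc3 in 8. Whether any of this has a part in the changes of the protocadherins was not tested.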

How the data were processed

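Poly-A RNA of 45 cultures was sequenced from directional libraries (single-end, 75 bases). The authors aligned reads to GRCm38 with STAR 2.5.4b and counted them on the sense strand with featureCounts 1.6.5 and Ensembl release 94, without multi-mapping reads or reads overlapping several genes, and deposited raw counts per gene. Identifiers were matched to GENCODE M21 (54409 of 54532), which gave symbols, GRCm38 positions and countable bases. M21 also gives the symbol Pcdha11 to the gene called Pcdha10 here, which was named by its position in RefSeq. Each comparison was fitted on its own 10 libraries (20 for the difference between protocols) with edgeR 4.0.16 in R 4.3.3: TMM, every gene with at least 1 read, quasi-likelihood test, adjusted p threshold 0.05. The SE is the log2 fold change divided by the root of F. Scripts were tested on simulated data, where this test made more false calls than its threshold allows and the fit with filterByExpr about as many as it allows. Members and lists were chosen with earlier results of these data known. Named were the C types, in each cluster the 3 highest members and the lowest by mean CPM, up to 3 called members per cluster, direction and comparison with the largest changes, and list genes by the same kind of rule (up to 4, plus Ctcf), of which 1 is not reported here. Alternatives were DESeq2 1.42.0, other scalings and filters, all 45 libraries, and leaving out each preparation. Library totals were added after the data were seen.

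The numbers in the sample titles were read as the culture preparation, because the study defines each preparation as a replicate. On this reading they pair libraries across conditions. Deviations from group means of same-numbered libraries correlated with means of 0.353 to 0.547 per comparison over 13592 expressed genes, the lowest single pair being −0.193 in TBOA against Bic 2h. The study's methods name no block, so the block (with filterByExpr) is an alternative. No library pair had identical counts.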

Additional observations from a re-analysis of the deposited data

Results flagged for a closer look

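The active effect differed between the LP and the SP for 10 members by a test of the difference itself. The difference on the log2 scale was −0.41 for Pcdha3, −0.47 for Pcdha5, −0.59 for Pcdha9, −0.61 for Pcdha10, −0.60 for Pcdha12 and −0.48 for Pcdhac2, and −0.51 for Pcdhga1, −0.43 for Pcdhga3, −0.53 for Pcdhga8 and −0.56 for Pcdhga11. All 10 had a log2 fold change below 0 in both protocols.

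A sample lay far from the other 4 of its group in 15 of 234 groups, where chance gives about 5% of groups. In control cultures these were libraries of low level, with 303.9 CPM for the Pcdhg sum, 29.2 CPM for Pcdhga11 and 3.85 CPM for Pcdhgb7. In SP TTX they were 128.5 CPM for Pcdhac2, 9.21 CPM for Pcdhb16, 30.5 CPM for Pcdhga3, 38.04 CPM for Pcdhga11 and 38.1 CPM for Pcdhgc4. In Bic 0.5h they were 14.6 CPM for Pcdhga1 and 36.2 CPM for Pcdhgc4, in Bic 1h 19.6 CPM for Pcdhb22, and in Bic 2h 0.334 CPM for Pcdhb1. In LP TTX it was 25.99 CPM for Pcdhb22, and in LP TBOA 5.02 CPM for Pcdhac1 and 54.6 CPM for Pcdhgc4.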

How the results depend on the processing

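The number of members that changed in the LP active effect was 45, and 37 to 48 under the alternatives. With filterByExpr it was 45, and 29 in the SP, 40 for the LP total effect, 2 for Bic 2h, 12 for the difference between protocols and 0 in the others. DESeq2 also called 0 members for Bic 0.5h, Bic 1h, SP TTX and TBOA. Where the counts moved by over 1.5 times, the cause was not tested. For Bic 1h the block over all genes called 2 members. For Bic 2h, DESeq2 called 4, the block 9, the block over all genes 19, the fit of all 45 libraries 4, library totals 1, and leaving out a preparation 1 to 2. For LP TTX, DESeq2 called 1, the block 10 and the block over all genes 4. For TBOA, the block called 1, the block over all genes 3, and leaving out a preparation 0 to 1. For the difference between protocols, the block called 29, the block over all genes 21, and leaving out a preparation 3 to 9. The block moved no other count by over 1.5 times. Without TMM, cluster sums differed by a mean log2 of −0.095 (Pcdhb, Bic 2h), −0.335 (Pcdha, SP active effect), −0.701, −0.106 and −0.506 (Pcdha, Pcdhb and Pcdhg, LP active effect) and −0.788, 0.02 and −0.559 (LP total effect). The sign turned for Pcdhac1 at Bic 2h (−0.104 without preparation 3 and −0.004 without 7, with a range to 0.247 over all 5, and −0.047 with library totals) and for Pcdhgc3 in the LP active effect (0.003 with filterByExpr, 0.006 without preparation 3 with a range down to −0.095 over all 5, 0.152 with library totals), neither of which was called. Of the other values of named members, 500 kept direction and call, 12 lost a call and 8 gained one. Pcdha8 and Pcdhb1, with under 1 CPM in nearly all libraries, are limited by depth.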

Other observations

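Pcdhgb8, which the annotation lists as a polymorphic pseudogene and which was therefore no member, had reads in all 45 libraries and 1034 in all. Its log2 fold change in the LP active effect was −0.62 (SE 0.27, edgeR adjusted p = 0.0998). Pcdha4 had 13 reads in 11 of the 45 libraries. Only 494 of its bases could be counted, because a read-through gene model covers the rest of its exon, so that its level is not known from these counts. Pcdhgc5 was lowest in preparation 3 in 9 of the 9 conditions and highest in preparation 1 in 8, and Pcdhgc4 was lowest in preparation 6 in 8.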
